A study of Mus musculus with 120 samples.

Results

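Short and long days were compared in the colonic bacteria of mice that drank antibiotics. The comparison rests on 11 of the 120 libraries of the series, taken by their labels: 5 from mice under 8 h of light and 16 h of dark (LD8/16) and 6 from mice under 16 h of light and 8 h of dark (LD16/8). Bacterial 16S rRNA gene amplicons of colonic content were sequenced from C57BL/6N mice that were 10 weeks old at the start, spent 7 days in acclimatisation and then 42 days under their light cycle. Both groups ate sterilised feed and had a mixture of broad-spectrum antibiotics in the drinking water, so neither holds untreated animals. Each mouse lived alone in a cage under lamps of 150 to 200 lux, and the design assigned 24 of its 240 mice to each combination of diet and light cycle. The sources used here name neither the components of the antibiotic mixture nor the hour at which content was taken. The labels do not say how libraries relate to mice, so p-values measure the spread between libraries.

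Parabacteroides and Bacteroides are obligate anaerobes of the order Bacteroidales that ferment plant and host polysaccharides, and they are common residents of the mammalian colon. Klebsiella, Pantoea and Enterobacter are facultative anaerobes of the order Enterobacterales, a group that often expands in the gut when antibiotics remove its competitors. Enterococci, which are Gram-positive lactic acid bacteria with intrinsic resistance to several drug classes, can expand in the same setting.

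Total counts ran from 55918 to 67288 per library, all counts had a named taxon, and values below are shares of a library's total unless stated. The 95% exact (Clopper-Pearson) binomial interval of a share of the 5 leading genera was at most 0.405 percentage points wide on either side, and a count of 0 (3 counts taken as its upper limit) allowed a share of up to 0.00446% to 0.00536% in a library. Such limits cover counting error only, because amplicon reads carry no molecular identifiers. Of the 13844 sequence variants in the series, 670 had counts in the 11 libraries, in 216 genera. A few genera known as food, oral or environmental bacteria appeared at low and even levels in sets of libraries that cut across the study's groups. These sets were rebuilt here from the counts of 94 such variants of 15 genera, and the labels give no such grouping. The 5 LD8/16 libraries fell in a set with replicates 1 and 2 of LD24/0 on chow, LD16/8 replicates 1 to 4 in a set with replicates 3 to 6 of LD0/24 on antibiotics, and LD16/8 replicates 5 and 6 in a set with the 6 LD12/12 libraries on antibiotics. The number of sets that held libraries of both compared groups was 0, so light cycle and library set cannot be told apart in any result below. The 94 variants made up 2.32% to 3.42% of counts in the 11 libraries, with means of 3.32% in LD8/16 and 2.82% in LD16/8.

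In both groups 5 genera (Parabacteroides, Klebsiella, Bacteroides, Enterococcus and Pantoea) supplied 88.7% to 93.1% of all counts. Parabacteroides led 5 of 6 LD16/8 libraries but 2 of 5 LD8/16 libraries. Bacteroides led the other LD16/8 library and 2 LD8/16 libraries, and Klebsiella led 1 LD8/16 library. None of the 5 genera passed the test between the light cycles by itself, whereas the balance between Parabacteroides and Klebsiella differed.

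**Figure D1:**
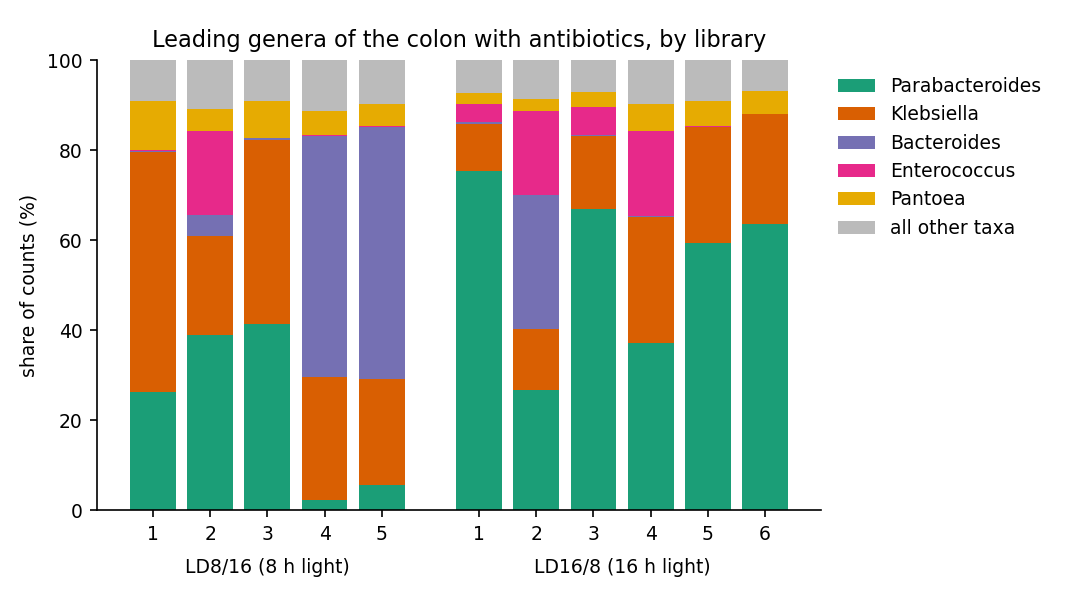
Share of counts (%, vertical axis) of the 5 leading genera and of all other taxa in each LD8/16 and LD16/8 library of the colon with antibiotics; numbers under the bars are replicates. Bacteroides reached 53.6% and 56.0% in LD8/16 replicates 4 and 5, where Parabacteroides was at 2.15% and 5.47%.

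Parabacteroides made up 26.3%, 38.8%, 41.4%, 2.15% and 5.47% of counts in LD8/16 replicates 1 to 5. In LD16/8 it ranged from 26.6% to 75.4% with a median of 61.5%. All 6 LD16/8 libraries lay above the LD8/16 mean of 22.8% ± 18.3 (SD, n = 5), yet the groups overlapped. The log2 fold change (LD8/16 over LD16/8, as for all fold changes below) was -1.27 ± 0.75 (SE) and did not pass (edgeR quasi-likelihood test, adjusted p = 0.300).

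Klebsiella held 53.2%, 22.0%, 40.9%, 27.3% and 23.6% of counts in the LD8/16 libraries. In LD16/8 it ranged from 10.5% to 27.9% with a median of 20.3%. All 5 LD8/16 libraries lay above the LD16/8 mean of 19.7% ± 7.18 (SD, n = 6), with an overlap in the twenties. The log2 fold change was 0.76 ± 0.36 (edgeR adjusted p = 0.150).

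The ratio of these genera does not depend on a library's total. The log2 ratio of Parabacteroides to Klebsiella was -1.02, 0.82, 0.02, -3.66 and -2.11 in LD8/16 replicates 1 to 5. It was 2.85, 0.96, 2.04, 0.41, 1.21 and 1.39 in LD16/8 replicates 1 to 6. Every LD16/8 library therefore held more Parabacteroides than Klebsiella, while 3 LD8/16 libraries held less and replicate 3 about equal amounts. LD8/16 replicate 2 lay within the LD16/8 range, so the groups overlapped. The means were -1.19 ± 1.77 (SD, n = 5) and 1.48 ± 0.86 (SD, n = 6), a difference of -2.67 (2-sided exact permutation test, p = 0.00866, where the smallest possible p is 0.00433). Against all Enterobacterales in place of Klebsiella the difference was -2.61 with the same p of 0.00866 (exact permutation test). These measures largely coincide: Klebsiella averaged 33.4% and 19.7% in LD8/16 and LD16/8, and all Enterobacterales 41.0% and 25.0%. The result passed in all 11 repeats that left out 1 library, with differences from -3.17 to -2.05. Without LD16/8 replicates 5 and 6 it was -2.76 (exact permutation test, p = 0.0317).

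**Figure D2:**
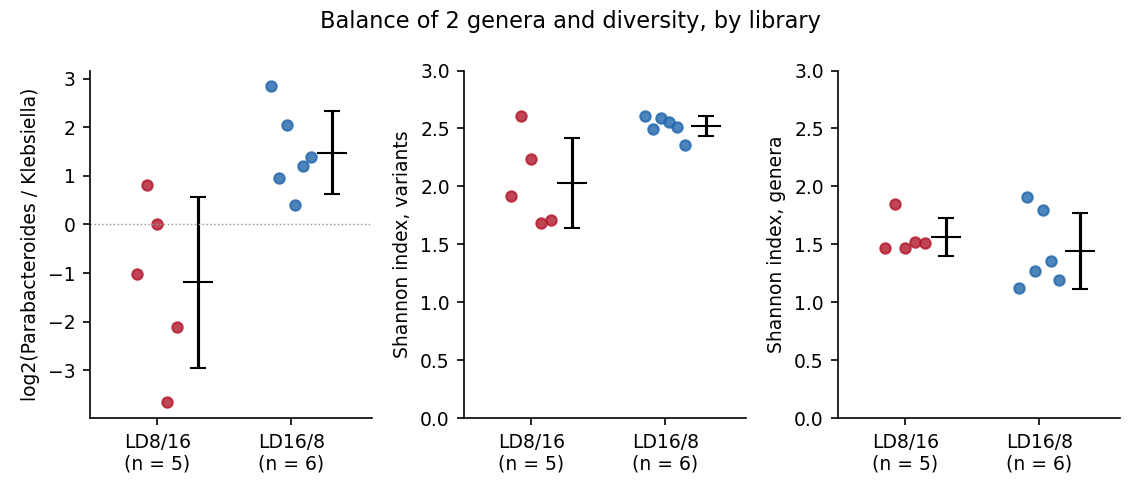
Left, log2 ratio of Parabacteroides to Klebsiella counts; middle and right, Shannon index (natural logarithm) over sequence variants and over genera. Points are libraries of LD8/16 (n = 5) and LD16/8 (n = 6), and bars show mean ± SD; the mean log2 ratios were -1.19 and 1.48.

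Pantoea, plant-associated relatives of Klebsiella, moved with it. Pantoea made up 10.9%, 4.97%, 8.10%, 5.47% and 4.87% of counts in LD8/16 and 2.31% to 5.97% in LD16/8. Its log2 fold change was 0.71 ± 0.35 (edgeR adjusted p = 0.180). Most of each genus was a single sequence variant: variant 1 of Klebsiella, named Klebsiella aerogenes in the deposited taxonomy, was 99.0% of its genus, and variant 1 of Pantoea, named Pantoea agglomerans, was 96.7%. (Variants are numbered within a genus by mean share over the 11 libraries.) The ratio of these variants ran from 4.70 to 5.10 across the 11 libraries, a coefficient of variation of 2.40%, and from 4.60 to 5.28 across all 29 colon libraries with antibiotics. By contrast, the ratio of Klebsiella variant 1 to Parabacteroides variant 1 ran from 0.434 to 37.3 in the same 11 libraries. Many bacteria carry several 16S gene copies that differ in sequence, and whether both variants come from the same cells was not tested.

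Bacteroides was present at very different levels within each light cycle. It made up 0.311%, 4.79%, 0.327%, 53.6% and 56.0% of counts in LD8/16, and 0.321%, 29.7%, 0.207%, 0.379%, 0.135% and 0.0989% in LD16/8. LD8/16 replicates 4 and 5 and LD16/8 replicate 2 were high, LD8/16 replicate 2 lay between, and the remaining libraries of both groups were at 0.379% or less. The log2 fold change of 2.16 ± 1.81 did not pass (edgeR adjusted p = 0.596). LD16/8 replicate 2 decided this: without it the log2 fold change was 6.66 (edgeR adjusted p = 0.0393). A single variant was 99.0% of the genus, with no species named.

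Enterococcus was likewise split within groups. It was at 0.114%, 18.6%, 0.176%, 0.215% and 0.204% in LD8/16, and at 4.15%, 18.6%, 6.11%, 18.8%, 0.207% and 0.0761% in LD16/8. The 4 LD16/8 libraries at 4.15% or more were replicates 1 to 4, which share a library set, while replicates 5 and 6 had levels like those of 4 LD8/16 libraries. In the set of LD16/8 replicates 1 to 4, LD0/24 replicates 3 to 6 were at 0.135% to 0.298%. In the set of replicates 5 and 6, the LD12/12 libraries were at 0.0802% to 22.6%. Those libraries are of other light cycles, and the source of the split within LD16/8 was not tested. The log2 fold change was -1.05 ± 1.37 (edgeR adjusted p = 0.855). Without LD8/16 replicate 2 it was -5.49 (edgeR adjusted p = 0.0233), and without LD16/8 replicates 1 to 4 it was 4.76 (edgeR adjusted p = 0.313). The genus was mainly Enterococcus gallinarum, whose variants 1 and 2 stood in a ratio of 3.45 to 4.77 in the 6 libraries that had enough counts of both (at least 20).

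Parabacteroides, in contrast to Bacteroides and Klebsiella, was a mixture of 27 variants, the commonest with 32% of the genus. The ratios of variant 1 to variants 2 and 4 varied less than those to variants 3 and 5, as was seen after their values were known. Variant 1 exceeded variant 2 by 1.20 to 1.67 times and variant 4 by 1.95 to 2.75 times (coefficients of variation 9.99% and 12.8%). For variants 3 and 5 the coefficients were 31.6% and, over 10 of 11 libraries, 162%. Variant 3 was 11.9% to 29% of the genus and variant 5 was 0% to 14.4%. Variant 5 was at 10.9% to 14.4% of the genus in LD8/16 replicates 2 and 3 and in LD16/8 replicates 1, 3, 5 and 6, and in these libraries variant 3 was at its lowest shares, 11.9% to 13.6%. Both patterns occurred under both light cycles.

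**Figure D3:**
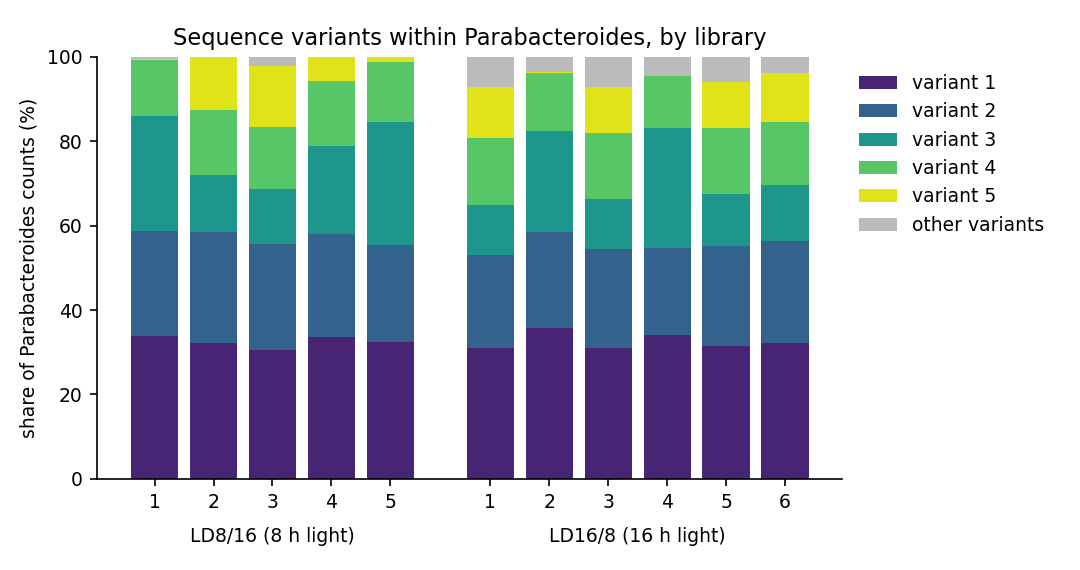
Share of each sequence variant in the counts of Parabacteroides (%, vertical axis) in each LD8/16 and LD16/8 library. Variant 1 stayed between 30.4% and 35.8% of the genus, while variant 5 ranged from 0% to 14.4%.

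Of the minor Parabacteroides variants 6 to 9, variants 6 and 8 did not overlap between the light cycles, variants 7 and 9 did, and none passed (edgeR adjusted p from 0.145 to 0.420). Overlap was not counted over all 306 variants tested, and the genus as a whole had a lower mean share in LD8/16. Variant 6 was 0.181%, 0%, 0.395%, 0% and 0% of the genus in LD8/16 and 0.861% to 2.36% in LD16/8. Its log2 fold change in share of all counts was -4.19 ± 1.98 (edgeR adjusted p = 0.162). Variants 7 and 9 had counts in 4 of 6 LD16/8 libraries and in 1 of 5 LD8/16 libraries. LD8/16 libraries held 5 to 12 Parabacteroides variants and LD16/8 libraries 11 to 17.

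Across all genera, 14 of 144 tested passed in edgeR's quasi-likelihood test (9.72%), 7 higher in LD8/16 (4.86%) and 7 higher in LD16/8 (4.86%), and 40 had an unadjusted p under 0.05. Of the 14, 11 stayed below 0.5% in every one of the 11 libraries, and 8 did not overlap between the groups, against 10 of all 144 genera tested (6.94%). Leading among them were Robinsoniella, Pediococcus and Lactiplantibacillus, which were higher in LD8/16, and Bifidobacterium, which was higher in LD16/8. The number that passed in edgeR was 8 without LD8/16 replicate 3, 9 without LD16/8 replicate 3 and 7 without LD16/8 replicates 1 to 4.

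**Figure D4:**
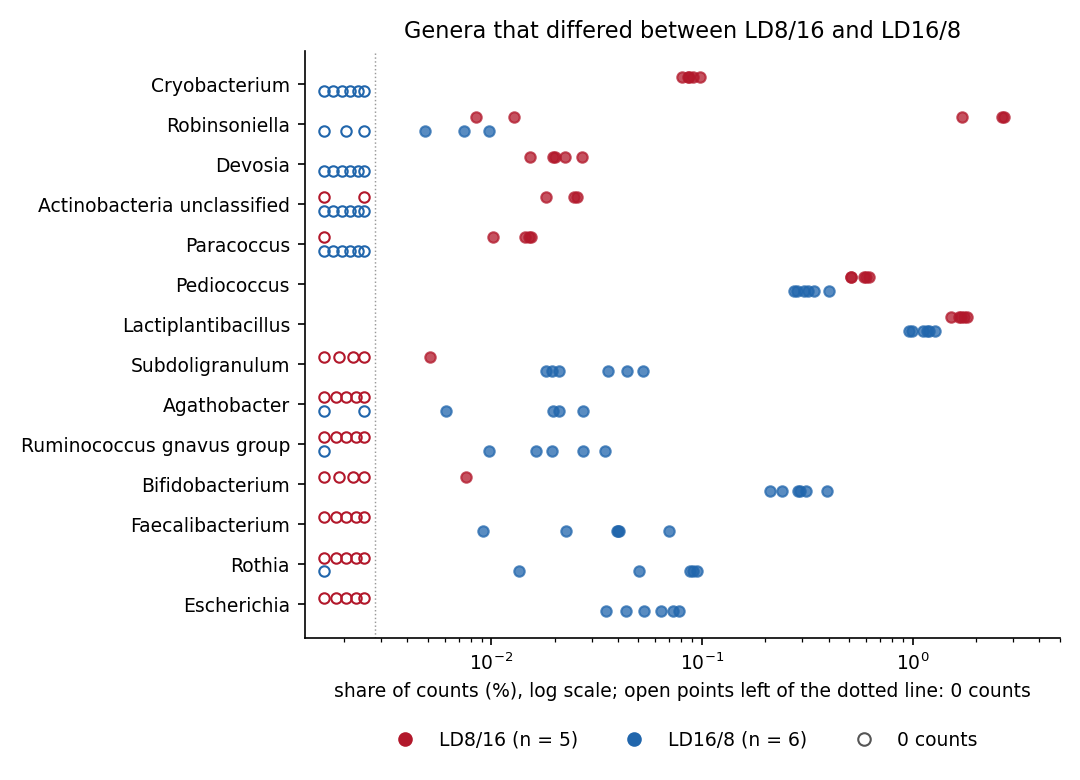
Share of counts (%, logarithmic horizontal axis) of the 14 genera that passed, in each LD8/16 (red, upper points) and LD16/8 (blue, lower points) library; open points left of the dotted line are libraries with 0 counts. Bifidobacterium was at 0.210% to 0.392% in LD16/8 and had counts in 1 LD8/16 library.

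Robinsoniella, a spore-forming anaerobe of the Lachnospiraceae, reached the highest share in any library among the 14 genera. It made up 0.00849%, 2.71%, 0.0128%, 2.65% and 1.71% of counts in LD8/16. In LD16/8 it had counts in 3 of 6 libraries and reached 0.00977%. Replicates 2, 4 and 5 of LD8/16 were high, while replicates 1 and 3 were close to the LD16/8 range. The log2 fold change was 8.53 ± 1.82 (edgeR adjusted p = 0.00179), and it stayed past the threshold in all 11 repeats that left out 1 library. Variants 1 and 2 of the genus stood in a ratio of 5.09 to 6.25 in the 3 high libraries. Chow LD24/0 replicates 1 and 2, of the same library set, held 0.0143% and 0.0861%, below the 3 high libraries. Without LD16/8 replicates 1 to 4 the adjusted p was 0.0710 in edgeR.

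Bifidobacterium, a saccharolytic Actinobacterium used in many probiotics, was nearly absent under short days. It had counts in 1 of 5 LD8/16 libraries, at 0.00756% (5 counts), and was present in all 6 LD16/8 libraries, at 0.239%, 0.287%, 0.210%, 0.291%, 0.392% and 0.313%. The groups did not overlap. The log2 fold change was -7.35 ± 0.83 (edgeR adjusted p = 2.24e-07). The 3 other light cycles on antibiotics held means of 0.338% (LD0/24), 0.932% (LD12/12) and 0.308% (LD24/0), so LD8/16 had the lowest mean of the 5 light cycles. The LD12/12 mean was 0.510% without its replicate 1, which was at 3.04%. Chow LD24/0 replicates 1 and 2, of the same set as LD8/16, held 0.00717% and 0.0926%. Bifidobacterium is among the 15 genera from which the sets were built, as are Pediococcus, Lactiplantibacillus and Rothia.

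Lactiplantibacillus and Pediococcus are lactic acid bacteria common in fermented plant material. Lactiplantibacillus made up 1.81%, 1.67%, 1.75%, 1.70% and 1.52% of counts in LD8/16 and 0.963% to 1.28% in LD16/8. Pediococcus made up 0.620%, 0.590%, 0.604%, 0.510% and 0.511% in LD8/16 and 0.275% to 0.401% in LD16/8. Neither genus overlapped between the groups, and each was even within a group. The log2 fold changes were 0.59 ± 0.18 (edgeR adjusted p = 0.0260) and 0.82 ± 0.24 (edgeR adjusted p = 0.0214). Pediococcus variant 2, named Pediococcus pentosaceus, had a larger log2 fold change of 1.87 ± 0.39 (edgeR adjusted p = 0.00362). These calls were narrow. Leaving out LD8/16 replicate 3 gave edgeR adjusted p-values of 0.0694 for Lactiplantibacillus and 0.0557 for Pediococcus, and leaving out LD16/8 replicate 3 gave 0.0594 and 0.0505. Without LD8/16 replicate 4 the edgeR adjusted p of Lactiplantibacillus was 0.0615. With library set as a random block (limma) neither passed, with adjusted p-values of 0.221 and 0.0667. Both genera were used to build the sets, so these values are a description only.

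The other 10 genera that passed lay below 0.1% in both group means and are named because they passed, after their values were seen. Escherichia, a gut commensal of the Enterobacterales, had 0 counts in the 5 LD8/16 libraries, which allows a share of up to 0.000973% over the group. It was at 0.0350% to 0.0782% in the 6 LD16/8 libraries, at least 59.0-fold higher (edgeR adjusted p = 4.63e-06). All such bounds set 3 counts over the group in place of 0. Faecalibacterium, a butyrate producer, was at 0.00913% to 0.0700% in LD16/8 and at 0 counts in LD8/16, at least 37.6-fold higher (edgeR adjusted p = 1.93e-05). Both genera were present in every LD16/8 library and in no LD8/16 library. Subdoligranulum, a relative of Faecalibacterium, had 3 counts in LD8/16 and 124 in LD16/8, a ratio per total count of 32.8 (95% counting interval 11 to 161) in favour of LD16/8. Rothia, an oral Actinobacterium, had 216 counts over 5 LD16/8 libraries and 0 in LD8/16, at least 57.1-fold higher. The Ruminococcus gnavus group, mucin-degrading Lachnospiraceae, was at least 18.5-fold higher in LD16/8, and Agathobacter, a butyrate producer of the same family, at least 12.4-fold higher. These last genera were missing from 1 to 2 LD16/8 libraries each, so their ranges overlapped at 0.

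Cryobacterium, a cold-adapted soil Actinobacterium, led the low-level genera that were higher in LD8/16 than in LD16/8. It was at 0.0985%, 0.0912%, 0.0866%, 0.0802% and 0.0860% in LD8/16 and had 0 counts in LD16/8, at least 114-fold higher. It reached the minimum of 3 counts in these 5 libraries and in 0 of the other 24 colon libraries on antibiotics, so it entered the test only through the group where it is high, and its edgeR adjusted p of 0.000723 is given as a description only. Devosia, a soil and water genus, was at 0.0153% to 0.0268% in LD8/16 with 0 counts in LD16/8, at least 26.9-fold higher (edgeR adjusted p = 0.00796). Both were present in every LD8/16 library. Paracoccus was at least 14.7-fold higher in LD8/16 and unclassified Actinobacteria at least 18.5-fold higher, with counts in 4 and 3 of 5 libraries. These genera too would not have entered the test without the LD8/16 libraries, so 3 of the 14 calls, among 20 of 144 genera tested that entered only through the group where they were higher, are descriptions. Some single libraries ended calls in edgeR. Agathobacter did not pass without LD8/16 replicate 3, 4 or 5 or LD16/8 replicate 3, and Paracoccus without LD8/16 replicate 3 or LD16/8 replicate 1 or 3. Unclassified Actinobacteria did not pass when any 1 of the 6 LD16/8 libraries was left out, with edgeR adjusted p-values from 0.0710 to 0.0840. Unclassified Actinobacteria met the filter in only 8 repeats that left out 1 library, of which 2 passed. Cryobacterium met it in only 6, all passing.

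The levels of several of these genera could be read in libraries of other light cycles that shared a set. Cryobacterium, which was not used to build the sets, was at 0.0760% and 0.0894% in chow LD24/0 replicates 1 and 2, of the set of LD8/16, and at 0 counts in chow LD24/0 replicates 3 to 6. Devosia was at 0.0195% and 0.0201% in the first pair and 0 in the other 4. Both genera thus had levels close to those of LD8/16 in chow libraries of the same set. Devosia also had 0.0778% and 0.0924% in LD0/24 replicates 1 and 2 on antibiotics, which lie in another set. The 6 LD24/0 libraries on antibiotics, of that other set, held a Devosia mean of 0.0554%, above the LD8/16 mean of 0.0208%. Faecalibacterium was at 0.0395% to 0.0700% in LD16/8 replicates 1 to 4 and 0.0533% to 0.0740% in the LD0/24 libraries of their set, against 0.00913% and 0.0225% in LD16/8 replicates 5 and 6 and 0.00658% to 0.0222% in the LD12/12 libraries of theirs. Rothia was among the genera from which the sets were built, so its division by set is no finding; it was at 0.0501% to 0.0951% and 0.0875% to 0.137% against up to 0.0135% and up to 0.0132%. With library set as a random block (limma on log2 CPM, correlation within sets 0.194), 6 genera passed, against 15 in the same fit without the block. The 6 were Robinsoniella, higher in LD8/16, Bifidobacterium, Escherichia, Faecalibacterium and Subdoligranulum, higher in LD16/8, and Cryobacterium, which entered the fit only through LD8/16. Bifidobacterium was used to build the sets, so its result with that block is a description only. Faecalibacterium had 0 counts in chow LD24/0 replicates 1 and 2 and a mean of 0.0735% in replicates 3 to 6. Subdoligranulum had 0 counts and 0.00621% there. Its means were 0.0236% in LD16/8 replicates 1 to 4 and 0.0368% in their LD0/24 partners. They were 0.0483% in replicates 5 and 6 and 0.0598% in their LD12/12 partners. For Escherichia these 6 means were 0.00358%, 0%, 0.0670%, 0.0801%, 0.0393% and 0.0205%.

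**Figure D5:**
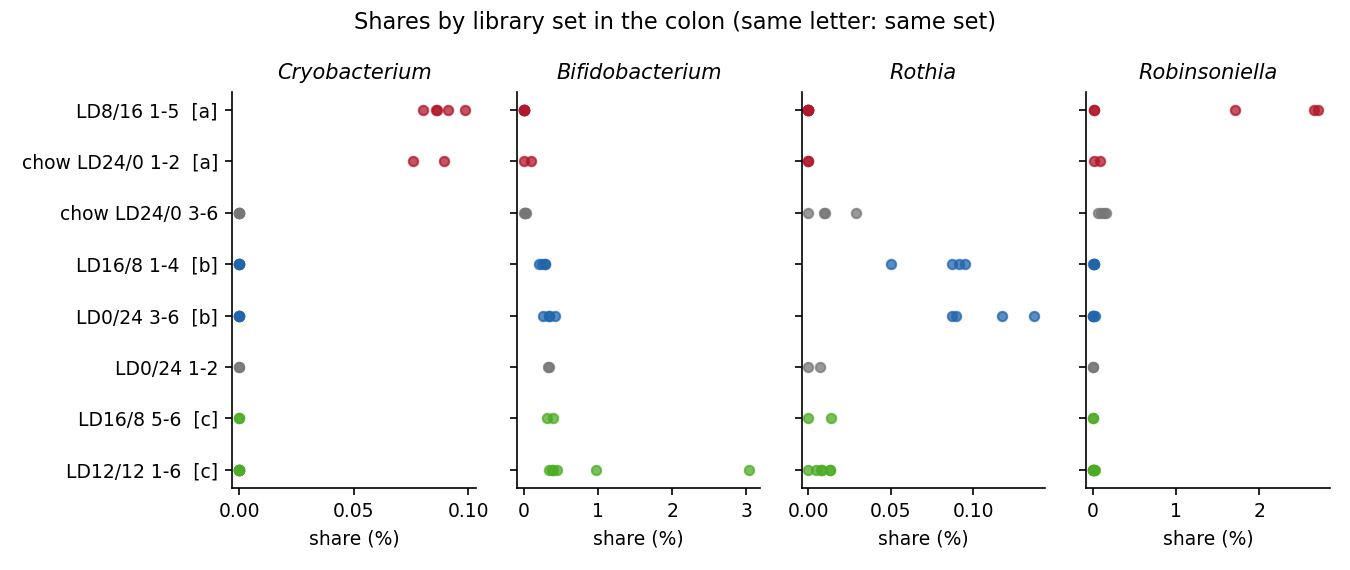
Share of counts (%, horizontal axes) of Cryobacterium, Bifidobacterium, Rothia and Robinsoniella in colon libraries, by group and replicate; libraries are from mice on antibiotics unless marked chow, and groups with the same letter and colour share a library set (grey: other sets). Cryobacterium had counts in the LD8/16 libraries and in chow LD24/0 replicates 1 and 2, at 0.0760% to 0.0985%.

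The lists of taxa below were drawn from the deposited taxonomy, and the median log2 fold change over all 144 genera was 0. No genus of the order Bacteroidales passed (0 of 9, median -0.07), although the order as a whole held 46.3% ± 13.4 (SD, n = 5) of counts in LD8/16 and 60.3% ± 12.9 (SD, n = 6) in LD16/8. Of 11 Enterobacterales 1 passed, Escherichia (median 0), and their summed mean share was 41.0% in LD8/16 and 25.0% in LD16/8. Of 15 Lactobacillales 2 passed, Lactiplantibacillus and Pediococcus, both higher in LD8/16 (median -0.58, opposite in sign). Enterococcaceae and Staphylococcaceae had 0 of 2 passing (median -2.91). These shares are near the 9.72% of all genera.

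Among the spore-forming and butyrate-producing Clostridia, 3 of 19 Lachnospiraceae passed, with Robinsoniella higher in LD8/16 and Agathobacter and the Ruminococcus gnavus group higher in LD16/8 (median -0.29). In the families Oscillospiraceae, Ruminococcaceae and Butyricicoccaceae 2 of 15 passed, Faecalibacterium and Subdoligranulum, both higher in LD16/8 (median 0.04). Of the 4 Coriobacteriales and Bifidobacteriales 1 passed, Bifidobacterium (median -2.08). Nothing passed among 3 Erysipelotrichales (median 0), 3 sulfate-reducing Desulfovibrionia (median -0.14) and 2 mucus-layer genera (median 0.23). The same held for the listed 9 plastid, mitochondrial, reagent and environmental taxa (median 0.10) and 2 oral genera (median -1.75). These lists do not cover all such genera: 5 of the 14 that passed (Rothia, Cryobacterium, Devosia, Paracoccus and unclassified Actinobacteria) were on no list. The count over all genera, against which these lists are to be read, was 14 of 144 (9.72%). Plastid, mitochondrial, reagent and environmental taxa summed to 0.796% to 1.17% in LD8/16 and 0.525% to 1.5% in LD16/8.

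Of 76 families 7 passed in edgeR (9.21%), 5 higher in LD8/16 (6.58%) and 2 higher in LD16/8 (2.63%). Lachnospiraceae made up 0.443%, 2.87%, 0.216%, 2.84% and 2.17% in LD8/16 and 0.0996% to 0.575% in LD16/8, a log2 fold change of 2.17 ± 0.54 (edgeR adjusted p = 0.00613). The 3 high LD8/16 libraries were those with high Robinsoniella. Ruminococcaceae, which include Faecalibacterium, were at 0.0143% to 0.0768% in LD8/16 and 0.0761% to 0.310% in LD16/8, with a log2 fold change of -2.03 ± 0.41 (edgeR adjusted p = 0.000909). Bifidobacteriaceae repeated the values of Bifidobacterium. Microbacteriaceae, Devosiaceae, Rhodobacteraceae and unclassified Actinobacteria passed with higher levels in LD8/16 and group means below 0.1%. In LD8/16 Cryobacterium made up 272 of 290 Microbacteriaceae counts, and Paracoccus all 35 Rhodobacteraceae counts. These genera and unclassified Actinobacteria entered the genus test only through LD8/16, so the calls of these 3 families are descriptions. How families entered the filter was not counted. The families of the leading genera did not pass, with a log2 fold change for Tannerellaceae of -1.27 ± 0.73 (edgeR adjusted p = 0.267) and for Enterobacteriaceae of 0.71 ± 0.38 (edgeR adjusted p = 0.255). In edgeR 4 families passed without LD16/8 replicate 1, 11 without LD16/8 replicate 6, and 1 without LD16/8 replicates 1 to 4.

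Of 306 variants 9 passed in edgeR (2.94%), 3 higher in LD8/16 (0.98%) and 6 in LD16/8 (1.96%). Among the 3 was Cryobacterium variant 1, with 272 counts in LD8/16 and 0 in LD16/8. These were all the counts of its genus, which entered the genus test only through LD8/16, so this call is a description. How variants entered the filter was not counted. Klebsiella variant 3, also named Klebsiella aerogenes, was chosen after its values were seen: it had 0 counts in LD8/16 and 158 counts over 5 LD16/8 libraries, at least 41.8-fold higher (edgeR adjusted p = 0.0224), while variant 1 had a log2 fold change of 0.78 ± 0.38 that did not pass (edgeR adjusted p = 0.180). Bifidobacterium variants 1 and 2 both passed, with 2 counts and 0 counts in LD8/16. Variant 1 had 759 counts in LD16/8, a ratio per total count of 301 (95% counting interval 83.1 to 2491), and variant 2 was at least 92.1-fold higher in LD16/8.

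Among the 5 phyla above 0.1% of counts, only Actinobacteriota passed. They were at 0.0912% to 0.153% in LD8/16 and 0.281% to 0.428% in LD16/8, without overlap (2-sided exact permutation test, adjusted p = 0.0216 over 5 phyla). The deposited taxonomy carries an older and a newer name for this phylum, which were merged after the values were seen. The older name, Actinobacteria, covered Cryobacterium, the unclassified Actinobacteria and other taxa. Together they were at 0.0912% to 0.129% in LD8/16 and up to 0.00648% in LD16/8. The newer name covered Bifidobacterium, Rothia and other taxa, together at 0% to 0.0287% in LD8/16 and 0.281% to 0.428% in LD16/8. Members of the phylum thus moved in opposite directions. Proteobacteria had means of 41.8% ± 16.0 and 25.7% ± 8.72 (SD, n = 5 and n = 6; exact permutation test, adjusted p = 0.184). Bacteroidota had 46.3% ± 13.4 and 60.3% ± 12.9 (exact permutation test, adjusted p = 0.202). Firmicutes had 11.2% and 13.1% (exact permutation test, adjusted p = 0.874), and Cyanobacteria, which include plastids of the feed, 0.414% and 0.385% (exact permutation test, adjusted p = 0.839).

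Diversity was lower under short days when counted over variants, and the test over genera did not pass. The Shannon index over variants was 1.91, 2.61, 2.24, 1.68 and 1.71 in LD8/16 and 2.36 to 2.60 in LD16/8. The LD8/16 libraries were spread and overlapped the LD16/8 range through replicate 2. The means were 2.03 ± 0.391 (SD, n = 5) and 2.52 ± 0.0880 (SD, n = 6), a difference of -0.489 (2-sided exact permutation test, p = 0.0303). Without LD8/16 replicate 1, 3, 4 or 5 the exact permutation p was 0.0667. Over genera the means were 1.56 ± 0.162 and 1.44 ± 0.328, a difference of 0.123 in the other direction (exact permutation test, p = 0.472, n = 5 and n = 6). The most abundant variant took 44.9% of counts on average in LD8/16 and 25.1% in LD16/8 (exact permutation test, p = 0.0260), whereas the most abundant genus took 48.6% and 55.3% (exact permutation test, p = 0.442). Parabacteroides, which led most LD16/8 libraries, was spread over many variants. Klebsiella and Bacteroides, which led 3 LD8/16 libraries, each consisted mainly of a single variant. Whether this makeup of the genera accounts for the differences over variants was not tested. The expected number of variants at 55918 counts was 163 ± 36.4 and 182 ± 22.0 (exact permutation test, p = 0.364, n = 5 and n = 6).

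Composition as a whole passed a distance-based test between the light cycles, with libraries of LD8/16 far from each other. Light cycle took 27.6% of the variation in Bray-Curtis distance over variants (distance-based test, exact permutation of the labels, p = 0.0368, smallest possible 0.00216). Over genera it took 28.2% (exact permutation p = 0.0390). The median distance was 0.572 between LD8/16 libraries, 0.315 between LD16/8 libraries and 0.446 between groups. The test responds to unequal spread within groups as well as to a shift between them, so its p does not separate these. The nearest library was of the same group for 4 of 5 LD8/16 and 4 of 6 LD16/8 libraries. The Bray-Curtis result was carried by several libraries: the exact permutation p was 0.0571 to 0.143 without LD8/16 replicate 4 or 5 or LD16/8 replicate 1, 3, 4, 5 or 6. With distances that weigh rare taxa more, light cycle took 16.2% (Jaccard on presence of variants) and 25.7% (Aitchison on genera), each with the smallest possible exact permutation p of 0.00216. Low-level taxa shared by library sets enter those distances, and their part was not tested.

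The same contrast was set beside the cecum of mice on antibiotics and the colon of mice on chow, which hold other libraries. In those, 16 of 215 (7.44%) and 8 of 258 genera (3.1%) passed between LD8/16 and LD16/8. The difference between LD8/16 and LD16/8 itself differed between colon and cecum for 7 of 215 genera (3.26%) and between antibiotics and chow for 12 of 258 (4.65%). The first count was 11 without LD16/8 replicate 6. Robinsoniella was also higher under short days in the cecum, with a log2 fold change of 10.21 ± 2.19 (edgeR adjusted p = 0.00204), a mean of 0.230% in LD8/16 (median 0.0128%, and a mean of 0.131% without replicate 6) and 0 counts in LD16/8. It passed in all 12 repeats that left out 1 cecum library. The test for a difference between sites did not pass for it (-1.68 ± 1.61, edgeR adjusted p = 0.940). Bacteroides was higher in LD8/16 in the cecum, at a mean of 12.5% ± 26.5 (SD, n = 6) against 0.152% ± 0.0476 (SD, n = 6), a log2 fold change of 6.36 ± 1.94 (edgeR adjusted p = 0.0309), with a median of 0.251% in LD8/16. Without LD8/16 replicate 5 the LD8/16 mean was 1.74%, and the call held in 6 of 12 repeats that left out 1 cecum library (edgeR adjusted p from 0.0258 to 0.244).

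Parabacteroides in the cecum averaged 56.5% and 71.9% (edgeR adjusted p = 1.00), and Klebsiella 16.1% and 15.6% (edgeR adjusted p = 1.00). On chow these genera were minor, with Parabacteroides at 1.42% and 1.00% and Klebsiella at 0.654% and 0.511% in LD8/16 and LD16/8. Neither genus passed the test of a difference between sites or diets. Bifidobacterium ran the other way in the colon on chow, where it was higher in LD8/16 (0.116% against 0.00442%, edgeR adjusted p = 0.0111, passing in all 12 repeats that left out 1 chow library). The LD16/8 mean on chow was 0.00190% without replicate 6. In the cecum it was at 0.364% in LD8/16 against 0.0688% in LD16/8 (edgeR adjusted p = 0.0457), a call that held in 0 of 12 repeats that left out 1 cecum library (edgeR adjusted p from 0.0544 to 0.114). The differences between these contrasts were -9.75 ± 1.35 (edgeR adjusted p = 1.38e-07) and -12.03 ± 1.95 (edgeR adjusted p = 4.61e-06) on the log2 scale, and both passed in all 23 repeats that left out 1 library. Escherichia, Faecalibacterium and Subdoligranulum, higher in LD16/8 in the colon on antibiotics, ran the other way on chow by mean share. They held means of 0.0321%, 0.0339% and 0.0401% in LD8/16 of the colon on chow and had no counts in LD16/8. In the cecum Faecalibacterium averaged 0.0983% and 0.0787% in LD8/16 and LD16/8, and Subdoligranulum 0.00601% and 0.0503%. In those groups too, no library set held both light cycles.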

How the data were processed

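Amplicons were sequenced from PacBio SMRTbell libraries of DNA taken with a stool kit, per the labels' protocols, which name rumen digesta where the sample labels give colonic content. The authors deposited raw counts per sequence variant and library, with no scaling. Denoiser, primers and taxonomy database: not given in the sources used here. Among 25 pairs of libraries of the same group none held identical counts.

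Counts were summed by genus, family and phylum, with older and newer names of a phylum merged (names as deposited were an alternative). Features with at least 3 counts in at least 5 of the 29 colon libraries on antibiotics were fitted with edgeR 4.0.16 (quasi-likelihood, R 4.3.3), taking total counts as library sizes and 1 mean per light cycle, adjusted by the Benjamini-Hochberg method at 0.05. DESeq2 1.42.0 and limma 3.58.1 served as alternatives, and the fits were tested on simulated data. Single values were compared by exact permutation in Python 3.11.15 (scipy 1.17.1, numpy 2.4.6, pandas 2.3.3), and matplotlib 3.10.9 drew the figures. The log2 ratio of genera added 0.5 to each count.

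Named were the 12 genera with the highest mean share and every genus that passed with a mean of at least 0.1% in either group, then the other genera that passed. The 8 most abundant variants, variants that passed at 0.1%, families above 1% on average or passing, and at most 6 genera per interaction followed the same kind of rule. Groups, genera and lists were chosen with earlier results of these data known. No sequences are printed.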

Additional observations from a re-analysis of the deposited data

Results flagged for a closer look

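Some single libraries stood apart from the rest of their group by Dixon's test at the 95% level, which chance meets in about 1 in 20 groups of values; 34 groups of values were examined. Enterococcus reached 18.6% in LD8/16 replicate 2, where the other 4 libraries were at 0.114% to 0.215%. The same library held the fewest variants, 101.0 at the common depth. Bacteroides reached 29.7% in LD16/8 replicate 2, where the other 5 were at 0.0989% to 0.379%. Bifidobacterium was at 0.00756% in LD8/16 replicate 4 and had 0 counts in the other 4; its share rests on 5 counts, and with the others at 0 any count meets the criterion.

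The difference between LD8/16 and LD16/8 in the colon with antibiotics differed from that in the cecum with antibiotics for Bifidobacterium (-9.75 on the log2 scale), for Weissella (-4.43 ± 0.91, edgeR adjusted p = 0.000495) and for Rothia (-7.39 ± 1.57, edgeR adjusted p = 0.000720). Weissella, a lactic acid bacterium, had means of 0.126% and 0.156% in LD8/16 and LD16/8 of the colon and 0.0804% and 0.00447% in the cecum. Bifidobacterium, Weissella and Rothia are among the genera from which the library sets were built.

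The difference in the colon also differed between antibiotics and chow for Bifidobacterium (-12.03), Rothia (-9.28 ± 1.79, edgeR adjusted p = 0.000124), Limosilactobacillus (-6.71 ± 1.97, edgeR adjusted p = 0.0306), Akkermansia (7.01 ± 1.80, edgeR adjusted p = 0.00713) and Robinsoniella (6.82 ± 2.15, edgeR adjusted p = 0.0494). Akkermansia, a mucin degrader, was at 0.00933% in LD8/16 and 0.492% in LD16/8 on chow (median 0.0501%, and a mean of 0.247% without replicate 1), and at 0.0222% and 0.00882% on antibiotics. Limosilactobacillus was at 0.647% and 0.0835% on chow and had 10 counts in all in the 11 colon libraries on antibiotics. When 1 library was left out, the test between diets passed in 17 of 23 repeats for Limosilactobacillus (edgeR adjusted p up to 0.0831) and in 8 of 23 for Robinsoniella (up to 0.0877).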

How the results depend on the processing

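The 14 genera became 7 without LD16/8 replicates 1 to 4, 6 with library set as a random block (15 in the same limma fit without it, adjusted by the Benjamini-Hochberg method), and 8 to 14 when 1 library was left out; other settings gave 11 to 14. The 9 variants became 22 in DESeq2, 15 without a filter and 4 with the replicate block, with 6 to 12 when 1 library was left out. The 7 families became 1 without LD16/8 replicates 1 to 4, and 4 to 11 when 1 library was left out. When 1 colon library was left out, the site interaction gave 7 to 11 genera (11 repeats) and the diet interaction 9 to 13 (23 repeats). Repeats without a cecum library are not in the site range. Leaving out 1 cecum or chow library, chosen after seeing the data, gave 11 to 18 genera in the cecum and 7 to 9 on chow. Without LD16/8 replicates 1 to 4, Enterococcus (4.76) and Lentilactobacillus (-0.20) changed sign, neither passing. The Shannon difference was 0.123 over genera and -0.633 to -0.401 when 1 library was left out. The difference in the largest genus share became 19.8 percentage points for the most abundant variant. The log2 ratio of Parabacteroides to Klebsiella passed throughout when 1 library was left out (-3.17 to -2.05). With phylum names as deposited, an alternative chosen after seeing the data, 1 of the 5 phyla above 0.1% again passed. The Bray-Curtis share was 22.4% to 36.4% when 1 library was left out. Same-numbered libraries correlated at -0.116 to 0.110, above 0.1 in 1 of 5 pairs, so numbers were not taken to pair mice. With the replicate block, 11 genera, 6 families, 7 (site) and 10 (diet) interactions passed. Permuting within 5 pairs, where exact p cannot go below 0.0625, gave -2.69 for the log2 ratio (p = 0.0625), -0.521 for Shannon (p = 0.125) and 26.9% for Bray-Curtis (p = 0.125). A fixed set block was not run, because no set holds both groups. The median over genera was 0.04 with TMMwsp scaling and 0.17 with centred log-ratios. Bifidobacterium, Escherichia, Faecalibacterium and Subdoligranulum passed in all 22 alternatives for the colon on antibiotics. None of these alternatives separates light cycle from library set, because no set holds both groups. Causes of these shifts were not tested.

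Limits: 5 and 6 libraries, light cycle inseparable from library set, antibiotic mixture and sampling hour unknown, and shares that say nothing of total bacterial load.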
